A study of Homo sapiens with 6 samples.

Results

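The libraries labelled sh4 were set against those labelled sh1, to ask which transcripts separate the knockdown groups of the study. The members are 4 libraries, 2 labelled sh1 and 2 labelled sh4, of 6 in the series, and are defined by their titles. The comparison itself was chosen with earlier results of these data known. The other 2 libraries are labelled NC and served as a reference level. All 6 are labelled as A549, an established human line from a lung cancer, and no title or label gives a dose, a time or a second treatment. The labels do not say what NC, sh1 and sh4 stand for. They are read here as a negative control and as short hairpin RNAs, from the word knockdown in the series title, and the title names the target as DSTY. Whether replicates came from separate cultures, clones or pools of cells is not given, so p-values measure the spread between these libraries, which may be technical.

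A short hairpin RNA is cut by Dicer into a small RNA that guides an Argonaute protein to transcripts of matching sequence, which are then cleaved or repressed. Hairpins against 1 target differ in their guide sequence, and each can also lower other transcripts that match its seed in part. Knockdown studies therefore often use more than 1 hairpin and look at how far their profiles differ. This is background and was not tested here, because neither the hairpin sequences nor the target's level was analysed here.

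All 54532 gene IDs carry ENSMUSG, the prefix Ensembl gives to mouse genes, although the labels state human cells. No names accompany the IDs in the files, and 0 IDs matched the gene tables used here, so genes are given by ID, without symbol, function or position. For the same reason no pathway list, cell type marker or sequence is described. The conflict between the IDs and the label was not resolved, and "sh1" and "sh4" below mean the libraries so labelled.

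Values are FPKM as the authors computed them, that is, sequenced fragments divided by gene length and by a measure of library depth. Whole reads recovered from these values summed to 17007925 and 18011797 in sh1 and to 17943935 and 17579948 in sh4. An ID was tested if at least 2 of the 4 libraries reached 1 FPKM, which left 12280. The filter bound was not a natural break: 226 IDs had a second-highest value from 1 to 1.1 FPKM, and 247 had one from 0.9 to just under 1. Fold changes are differences in log2(FPKM + 1), sh4 minus sh1, which understate the change of low genes. An ID is called where limma's moderated test gave a Benjamini-Hochberg adjusted p below 0.05.

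Levels in sh4 and sh1 differed far more than levels between replicates. The replicates of sh1 had a median absolute difference in log2(FPKM + 1) of 0.07, and those of sh4 had one of 0.09. Between a single sh4 and a single sh1 library it was 0.27 to 0.29 in the 4 possible pairs. Differences of at least 1 log2 unit were seen for 84 IDs within sh1 and 97 within sh4, against 904 to 935 between libraries of the 2 groups. In all 4 pairs, sh4 was higher by at least 1 log2 unit for 341 IDs and lower for 297. A further 30 IDs were past 1 log2 unit upward in 1 pair and downward in another.

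**Figure D1:**
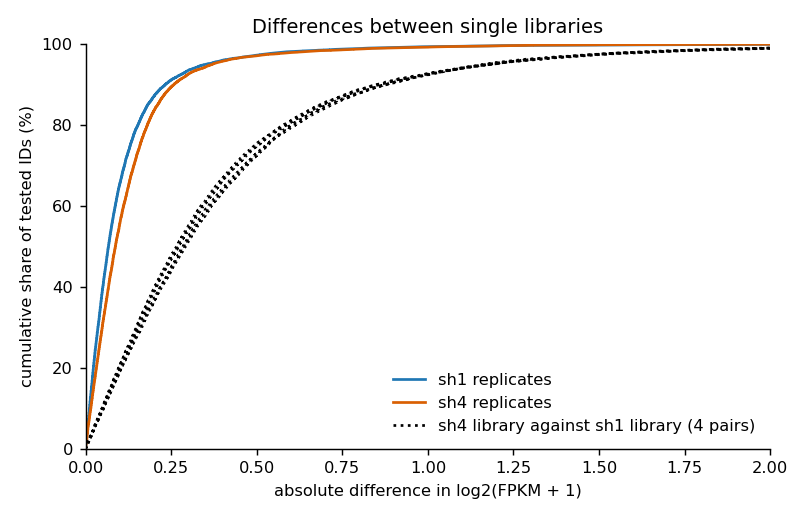
Cumulative share of the 12280 tested IDs (y axis, percent) by the absolute difference in log2(FPKM + 1) between single libraries (x axis, drawn to 2). Solid lines are the replicate pairs of sh1 and of sh4, and dotted lines are the 4 pairs of an sh4 with an sh1 library, whose median of 0.27 to 0.29 lies right of the replicate medians of 0.07 and 0.09.

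Of the 12280 IDs, 3747 were called higher and 3353 lower in sh4 than in sh1, 7100 in all (limma, n = 2 against 2). This is 57.8% of the IDs tested, 30.5% higher and 27.3% lower. By the same fit and over the same IDs, 66.3% were called where sh1 was compared with NC, and 68.8% where sh4 was. These shares come from fits with common libraries, and the differences among them were not tested. The sh4 and sh1 libraries did not overlap for 79.1% of IDs, and the 7100 called IDs were all among these. With 2 libraries a side an exact permutation test of a single ID cannot go below p = 0.33, so a call rests on the spread that limma pools over IDs.

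Small differences made up most of the calls. Over all IDs tested the absolute log2 fold change had a median of 0.27 and its standard error one of 0.08. Over the called IDs the median was 0.42. Past 0.5 log2 units there were 1495 IDs higher and 1334 lower in sh4. Past 1 log2 unit there were 423 and 384, which is 3.44% and 3.13% of those tested, or 6.57% together. A pseudocount of 0.1 in place of 1 gave 674 higher and 567 lower IDs past 1 log2 unit, since low levels are then compressed less. At the far end the lower IDs were more numerous, with 69 lower and 45 higher past 2 log2 units and 12 lower and 4 higher past 3. Scaled by read totals, 61 were lower and 48 higher past 2 log2 units, and 11 and 5 past 3. With equal FPKM sums there were 59 and 50, and 10 and 5. The pseudocount of 0.1 gave 185 lower and 173 higher past 2 log2 units, so the size of this excess depended on how low levels were treated.

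Among the 5180 IDs that were not called, the 95% interval of the log2 fold change lay within 0.5 of 0 for 4059 and within 1 for 4771. For the others the data do not bound the difference this closely. The largest difference not called was 1.61 log2 units.

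How many of the calls were higher in sh4 changed with the scaling of the libraries. In the deposited values 52.8% of the called IDs were higher in sh4. The share was 62.2% when libraries were scaled by their read totals and 67.0% when they were brought to equal FPKM sums. Rescaling to equal sums over IDs of 200 bp or more, an alternative added after seeing the data, gave 68.2%. These scalings moved the median log2 fold change of all IDs up by 0.07, 0.11 and 0.12, in that order. All 3747 higher calls were kept under these 3 scalings, and 2324 of the 3353 lower calls. Each of the 3 shifted fold changes upward, so the loss of lower calls alone follows from that direction. Among differences of at least 1 log2 unit, all 423 higher calls and 381 of the 384 lower calls were kept. Kept means still called in the same direction, not still past 1 log2 unit. The counts higher and lower past 1 log2 unit became 472 and 335, 525 and 307, and 533 and 296, in the same order of scalings. Voom on the recovered reads, scaled by trimmed means of log ratios between libraries, went slightly the other way. It called 3677 IDs higher and 3579 lower, a share of 50.7% higher, with a median shift of -0.01. That fit also adds no constant of 1 FPKM, so scaling was not the only thing changed in it.

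**Figure D2:**
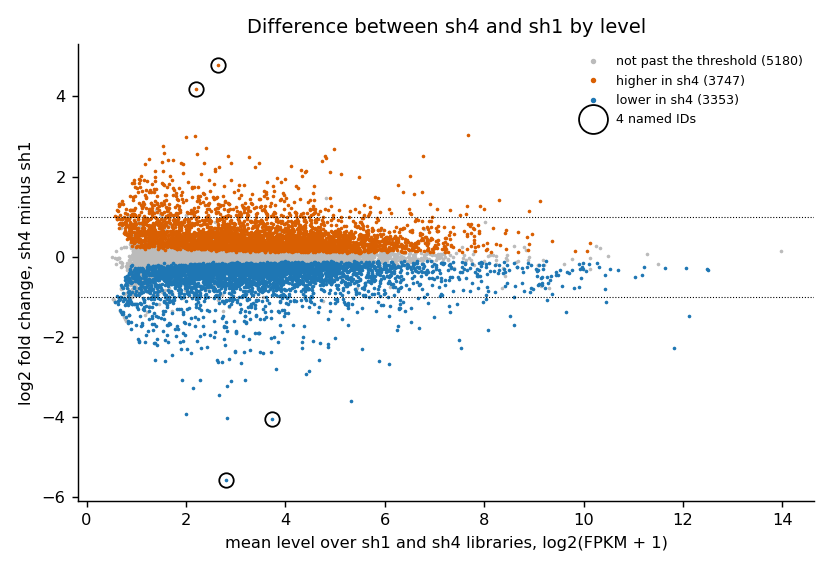
Each point is 1 of the 12280 tested IDs. The x axis is its mean level over the sh1 and sh4 libraries in log2(FPKM + 1), and the y axis its log2 fold change, sh4 minus sh1. Orange and blue mark the 3747 IDs called higher and the 3353 called lower in sh4, grey the 5180 not called, dotted lines 1 log2 unit either way, and circles the 4 IDs described by name, with changes of 4.79, 4.18, -4.04 and -5.56.

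The 4 IDs given individually are the ones with the largest fold change in each direction on the log2(FPKM + 1) scale, among called IDs with a mean of at least 5 FPKM. They were chosen for the size of this difference, so their values describe the extremes and do not speak for other IDs. Each was close to absent in 1 of the knockdown groups or many times lower there. All but ENSMUSG00000038963 were under 1 FPKM in that group and passed the level filter through the other.

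ENSMUSG00000037033 had the largest difference in favour of sh4 on the log2(FPKM + 1) scale, though not by the ratio of reads, which was larger for ENSMUSG00000019772. It stood at 30.9 and 32.5 FPKM in the sh4 libraries, from 1917 and 2003 reads. In the sh1 libraries it was 0.14 and 0.22 FPKM, from 8 and 13 reads, and in the NC libraries 1.02 and 1.32 FPKM. Both sh4 libraries were therefore far above all others, and both sh1 libraries lay below NC. The log2 fold change was 4.79 (SE 0.08, limma adjusted p = 5.28e-14), and 6.83 with a pseudocount of 0.1. In recovered reads per denominator, sh4 was 174 times sh1, with an exact 95% binomial interval of 114 to 281 that covers counting error only.

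ENSMUSG00000019772 showed the same order of the groups at a lower level. It was 17.98 and 19.5 FPKM in sh4, 0.09 and 0.08 in sh1 and 3.95 and 4.33 in NC. The 2 sh1 libraries held 5 reads each, against 1130 and 1219 in sh4 and 212 and 226 in NC. NC thus lay between the knockdown groups, which stood on opposite sides of it. The log2 fold change of sh4 against sh1 was 4.18 (SE 0.08, limma adjusted p = 1.51e-13), 6.66 with a pseudocount of 0.1, and the ratio of reads was 219 (exact 95% binomial interval 119 to 457).

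ENSMUSG00000032532 had the largest difference in favour of sh1 on the log2(FPKM + 1) scale. It was 46.3 and 48.3 FPKM in sh1, from 1010 and 1111 reads. The sh4 libraries held 0 and 1 reads and the NC libraries 0 and 1, so both of these groups were close to the detection limit. Only the sh1 libraries carried this transcript at a level above 1 FPKM. The log2 fold change was -5.56 (SE 0.08, limma adjusted p = 2.68e-14) and -8.64 with a pseudocount of 0.1. It depends on that constant, since 1 read in all stands for sh4. The ratio of reads, sh1 to sh4, was 2275, with an exact 95% binomial interval of 408 to 89910.

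ENSMUSG00000038963 was likewise high in sh1, at 53.2 and 52.3 FPKM from 4264 and 4423 reads. It was 2.05 and 2.50 FPKM in sh4 and 2.92 and 2.72 FPKM in NC. The sh4 and NC libraries were close to each other, with sh4 below both NC libraries, and sh1 stood apart from both. The difference of sh4 from NC was small but called, at -0.22 log2 units (95% interval half-width 0.14, limma adjusted p = 0.0078). The log2 fold change of sh4 against sh1 was -4.04 (SE 0.06, limma adjusted p = 4.83e-14). The ratio of reads, sh1 to sh4, was 23.2 (exact 95% binomial interval 20.97 to 25.7).

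**Figure D3:**
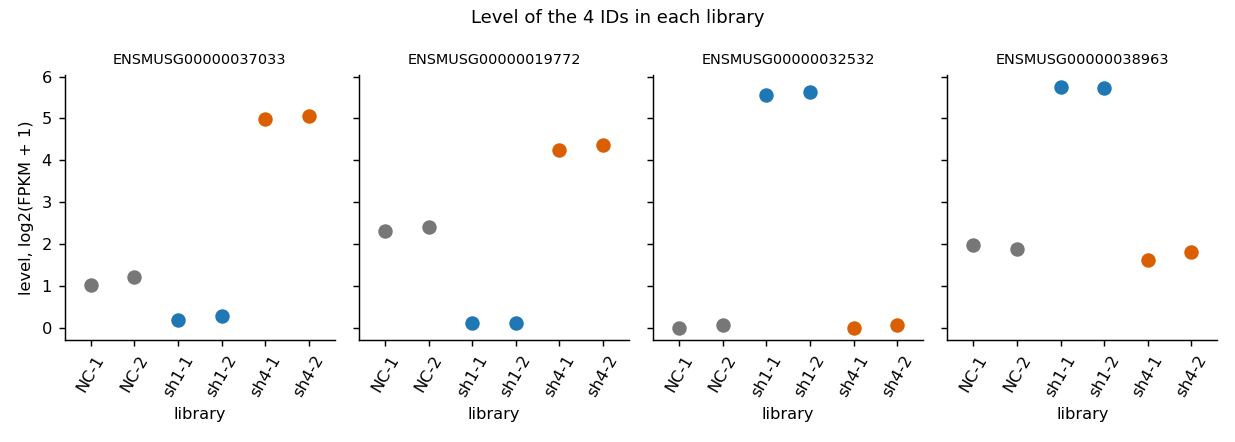
Level of the 4 IDs in each of the 6 libraries, in log2(FPKM + 1) on the y axis, with 1 point a library (grey NC, blue sh1, orange sh4) and no error bars. The first pair of IDs is high in sh4 and lowest in sh1, and the second pair is high in sh1 and low in both sh4 and NC.

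The 12 highest and 12 lowest IDs by the same ranking extended this description. The 12 highest ran from 4.79 down to 2.48 log2 units, with a thirteenth at 2.47, and mean levels from 5.38 to 329 FPKM. The 12 lowest ran from -5.56 to -3.07, with a thirteenth at -2.92, and mean levels from 5.18 to 73.4 FPKM. For the 12 highest, the median log2 fold change against NC was -1.71 in sh1 and 1.30 in sh4. For the 12 lowest it was 3.60 in sh1 and -0.08 in sh4. Among the highest, the change against NC ran from -2.36 to 0.36 in sh1 and from 0.15 to 3.92 in sh4. Among the lowest, it ran from 1.90 to 5.56 in sh1 and from -1.68 to 0.90 in sh4. All of the 12 lowest IDs were therefore above NC in sh1, and all of the 12 highest were above NC in sh4. The comparisons with NC share the NC libraries and, with the ranking, the sh1 and sh4 libraries, so these values are a description of levels and carry no test.

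Medians were also taken over the IDs that differed by at least 1 log2 unit, and single IDs can depart from them. For the 423 higher in sh4, the median level was 8.60 and 8.40 FPKM in the sh4 libraries, 2.44 and 2.49 in sh1 and 4.45 and 4.14 in NC. The median of NC lay between those of the knockdown groups, and the median log2 fold change against NC was 0.90 in sh4 and -0.46 in sh1. For the 384 lower in sh4, the median level was 2.70 and 2.58 FPKM in sh4, 10.95 and 10.5 in sh1 and 3.35 and 3.18 in NC. Here the NC median was near that of sh4, and the median log2 fold change against NC was -0.29 in sh4 and 1.16 in sh1. Over all tested IDs the library medians ranged from 7.45 to 7.56 FPKM, and the median log2 fold changes against NC were 0.03 in sh4 and 0.01 in sh1.

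**Figure D4:**
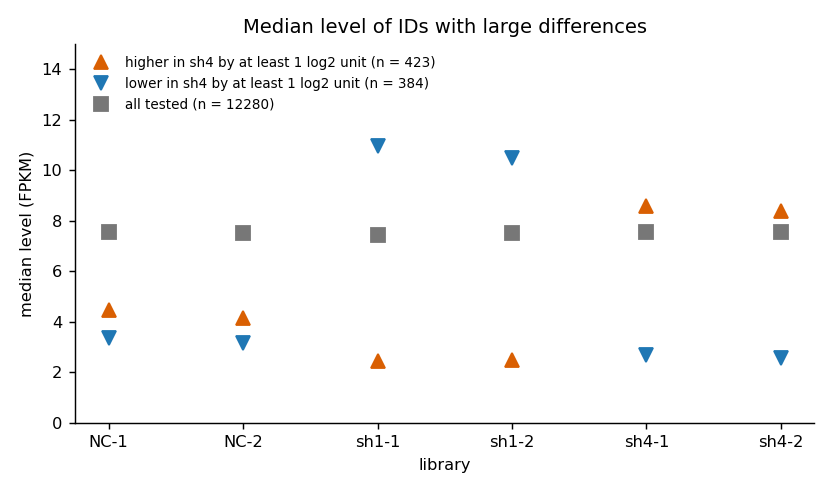
Median level in FPKM (y axis) in each of the 6 libraries (x axis) of the 423 IDs higher and the 384 IDs lower in sh4 by at least 1 log2 unit, with all 12280 tested IDs for reference. Both sets were chosen on the sh4 and sh1 libraries. In the NC libraries the first set has medians of 4.45 and 4.14 FPKM and the second 3.35 and 3.18.

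Past 2 log2 units the pattern of medians was the same. It was also wider, which follows from a stricter cut on the same difference. The 45 higher IDs had medians of 12.8 and 12.6 FPKM in sh4, 1.37 and 1.55 in sh1 and 5.86 and 6.10 in NC. The 69 lower IDs had medians of 1.92 and 2.03 FPKM in sh4, 17.99 and 19.02 in sh1 and 2.04 and 2.11 in NC. The median log2 fold change of the 69 IDs against NC was -0.06 in sh4 and 2.37 in sh1. These are signed medians over IDs that lie on either side of NC, and do not give the distance of single IDs from it.

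Transcripts read in 1 knockdown group and nearly absent from the other were few. An ID was counted as lacking in a group if neither library had more than 3 reads, and as carried if each had 30 or more. The bounds were applied to all 25747 IDs above 0 in any library, not only to the 12280 tested. By these bounds sh1 lacked and sh4 carried 33 IDs, and sh4 lacked and sh1 carried 10. The 33 IDs had 30 to 280 reads in a sh4 library and a median level of 1.00 FPKM there, and 4 of them had 0 reads in both sh1 libraries. The 10 IDs had 31 to 1111 reads in a sh1 library and a median level of 1.84 FPKM, and 1 of them had 0 reads in both sh4 libraries. By the same bounds, NC lacked 11 of the 33, carried 2 and lay between for 20. Of the 10, NC lacked 5 and lay between for 5. The level filter was passed by 15 of the 33 and 7 of the 10, through the group in which they were high.

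The most abundant transcripts were mostly lower in sh4. Of the 50 IDs with the highest mean FPKM over the 4 libraries, 37 were called lower and 3 higher, against 27.3% and 30.5% of all IDs. Their median log2 fold change was -0.31, against 0.01 for all tested IDs. Ranked by reads in place of FPKM, 38 of the top 50 were lower and 7 higher. This direction did not turn with the scaling in either ranking. For the top 50 by FPKM, total-read scaling gave 33 lower and 5 higher, and rescaling to equal FPKM sums 32 and 5. With sums over IDs of 200 bp or more it was 30 and 5. For the top 50 by reads the counts were 33 and 8, 32 and 8, and 31 and 8, in the same order. The top 50 by FPKM held 30.2% and 30.8% of the FPKM sum in sh1, against 25.8% and 26.0% in sh4 and 27.9% and 31.2% in NC. By reads, the top 50 held 16.2% and 16.3% of all reads in sh1, 13.0% and 12.8% in sh4 and 12.3% and 12.4% in NC. The sh1 libraries thus had the largest read share in these IDs. Both rankings used the sh1 and sh4 libraries only, so IDs abundant only in NC could not enter, which can lower the NC share.

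Across levels, the share of IDs called rose with abundance, as the standard error fell. It was 46.4% of the 4668 IDs under 5 FPKM, 61.0% of the 4821 between 5 and 20, 70.2% of the 2359 between 20 and 100 and 78.5% of the 432 at 100 FPKM or more. The median standard error in these classes was 0.11, 0.07, 0.06 and 0.05. The share with at least 1 log2 unit did not follow this order, at 7.80%, 5.79%, 5.38% and 8.56%. As deposited, 946 IDs were higher and 711 lower between 20 and 100 FPKM, while 138 were higher and 201 lower at 100 FPKM or more. The excess of lower IDs in the top class shrank to 169 against 161 higher with total-read scaling. It turned to 153 against 165 after rescaling to equal FPKM sums. The excess of higher IDs between 20 and 100 FPKM was kept in both, with 1149 against 576 and 1218 against 484.

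**Figure D5:**
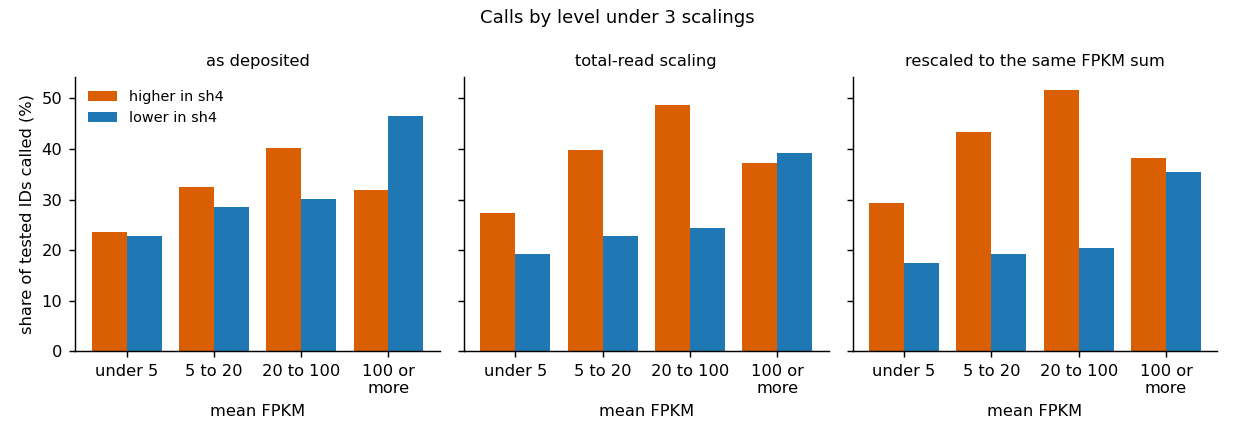
Share of tested IDs called higher (orange) or lower (blue) in sh4 (y axis, percent) in 4 classes of mean FPKM (x axis), as deposited and under 2 other scalings. At 100 FPKM or more the counts higher and lower were 138 and 201 in the deposited values, 161 and 169 when scaled by read totals, and 165 and 153 at equal FPKM sums.

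The calls also varied with gene length, recovered with the reads. Over all IDs 57.8% were called, and 52.8% of the calls were higher in sh4. In the 4 classes from 200 bp upward, 33.3%, 56.7%, 62.3% and 63.7% were called. Median reads rose with length as well, at 42.5, 397, 682.5 and 992, so length and depth were not separated. Between 1000 and 3000 bp, 1115 IDs were higher and 704 lower in sh4, a share of 61.3% higher. Between 3000 and 6000 bp the share was 56.4%, and at 6000 bp or more it was 44.1%, from 950 higher and 1204 lower IDs. Between 200 and 1000 bp, 127 were higher and 219 lower, or 36.7% higher. With total-read scaling these shares were 69.3%, 65.5%, 54.6% and 45.4%, and at equal FPKM sums 73.2%, 70.4%, 60.4% and 49.4%. The 1000 to 3000 bp class thus had the largest share of higher IDs of these 4 classes in each case, while the balance at 6000 bp or more turned. With sums over IDs of 200 bp or more, the balance between 200 and 1000 bp turned as well, at 50.9%. IDs under 200 bp had a median of 4 reads, and 47 of 267 (17.6%) were called, 12 higher and 35 lower. These short IDs held 4.87% and 5.19% of the FPKM sum in sh1 and 5.74% and 6.10% in sh4, from 0.11% to 0.13% of the reads.

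Leaving out 1 library at a time over all 6 libraries kept 5015 of the 7100 calls in every fit. Of the 807 calls with at least 1 log2 unit, 754 were kept in every such fit, 413 of the 423 higher and 341 of the 384 lower. Calls of the larger differences were thus kept more often (754 of 807) than calls of all sizes (5015 of 7100), which follows in part from their size.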

How the data were processed

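RNA abundance was measured by RNA-seq in 6 libraries labelled NC, sh1 and sh4 (2 each). Per the labels' protocols, RNA was taken with Trizol and libraries followed Illumina protocols. HISAT2 2.0.5 and the human build hg18 are listed, per the submitters' processing notes. The mouse prefix of all 54532 IDs conflicts with this build as well as with the cell label, and this was not resolved. The read counter and annotation were not stated in the sources used here. The deposited files hold 1 FPKM value per gene ID and library, computed by the authors.

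For 25747 of 25747 IDs above 0, whole reads and a whole length rebuilt the deposited FPKM within 1e-06 plus 1e-07 of the value. The shortest fitting length was taken, which may be too short for IDs of few reads. The libraries' denominators followed median-of-ratios size factors of these reads (largest departure 1.04e-08%), so the deposited values already carry a between-library scaling. In a gene of the median length, 2690 bp, 1 read was worth 0.0201 to 0.0223 FPKM in sh1 and sh4.

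log2(FPKM + 1) was fitted with limma 3.58.1 (R 4.3.3) over all 6 libraries, with 3 residual degrees of freedom, robust empirical Bayes and a variance trend on mean recovered reads. P-values were Benjamini-Hochberg adjusted over 12280 IDs. Recovery and fit were also run on simulated data, and the outcome is not reported here. The simulation took the recovered lengths and denominators as given, so it cannot show that those lengths are right. The comparison and lists were chosen with earlier results of these data known. Of 45 gene lists, 0 of 1016 symbols matched an ID. The naming rule needs symbols, so the 2 highest and 2 lowest IDs by its ranking (mean FPKM of at least 5, groups not overlapping) are named.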

Additional observations from a re-analysis of the deposited data

Results flagged for a closer look

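For the 4 IDs given individually, the change against NC differed between the knockdown groups, by limma's direct test of sh4 against sh1. All 4 were chosen for this difference, so the test is no independent support. For ENSMUSG00000037033 the log2 fold change against NC was 3.92 in sh4 and -0.87 in sh1, a difference of 4.79. For ENSMUSG00000019772 it was 1.94 in sh4 and -2.24 in sh1, a difference of 4.18, so both moved in opposite directions from NC. ENSMUSG00000032532 was at -0.01 in sh4 (95% interval half-width 0.17) and 5.56 in sh1, a difference of -5.56, and ENSMUSG00000038963 at -0.22 in sh4 and 3.82 in sh1, a difference of -4.04. Both NC libraries enter each pair of values. Groups of 2 libraries are too small for a check of single libraries that stand apart.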

How the results depend on the processing

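The numbers of IDs called, higher and lower stayed within 1.5 times their values under every alternative run, except that a minimum of 1 log2 unit leaves 807 calls by construction. Past 1 log2 unit the count of 807 was 443 (225 higher, 218 lower) with a mean FPKM of at least 5, over 7612 IDs. It was 1241 (674 higher) with a pseudocount of 0.1, and 1311 (697 higher, 614 lower) by voom on the recovered reads, which add no constant of 1 FPKM. Leaving out 1 library gave 5749 to 7131 calls, 3085 to 3756 higher and 2664 to 3377 lower, and 782 to 837 past 1 log2 unit (405 to 446 higher, 363 to 391 lower). Where this left sh1 or sh4 with 1 library, that library was taken to vary as the other groups do. The replicate block gave 7289 calls and changed no call of the 4 named IDs. Deviations of libraries with the same number in sh1 and sh4 correlated at -0.02, and the labels tie no batch to the number. With no filter, 6528 of 24134 IDs were called. Each of the 4 named IDs was called in the same direction in all 16 alternatives. These IDs were chosen as the extremes of the fit to the same libraries, so this is no independent support. Their log2 fold changes spanned 4.74 to 7.39 for ENSMUSG00000037033, 4.13 to 7.62 for ENSMUSG00000019772, -10.38 to -5.47 for ENSMUSG00000032532 and -4.55 to -3.92 for ENSMUSG00000038963. The limma adjusted p of the 4 named IDs depended strongly on the setting. It was 2.68e-14 to 1.51e-13 in the main fit and largest with no filter, at 4.69e-05 to 6.71e-05. Gene list comparisons were not run, since no list matched an ID. Depth limits IDs of few reads: 777 tested IDs had a mean under 30 reads.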
